A study of Mus musculus with 2 samples.

Results

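The transcripts of 8 genes that build, execute and start inflammasomes were followed through every cell class of the mouse abdominal aorta: the sensors Nlrp3, Aim2, Nlrc4 and Nlrp1b, the adaptor Pycard, the caspases Casp1 and Casp4, and the pore-forming effector Gsdmd. They were chosen by name, as 8 of the 27998 genes that the deposited tables list, and all 8 had at least 1 transcript in each of the libraries. The cells came from wild-type C57BL/6J mice 2 weeks after an injection into the peritoneum of LCWE, a cell wall extract of Lactobacillus casei that causes a vasculitis used as a model of Kawasaki disease, or of phosphate-buffered saline (PBS). The LCWE library was made from 1 pool of 7 aortas and the PBS library from 1 pool of 9, each cut between the left renal artery and the aortic bifurcation, digested with enzymes and cleared of dead cells. Both were read with 10x Genomics 3′ chemistry (V3), which counts unique molecular identifiers (UMIs), each standing for 1 captured transcript. The study asks which cells of the inflamed vessel differ from those of the control vessel.

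Inflammasomes are protein platforms that assemble in the cytosol when a sensor meets a sign of infection or damage. Nlrp3 responds to many kinds of membrane and ion disturbance, Aim2 binds DNA in the cytosol, Nlrc4 is engaged by Naip receptors that bind bacterial flagellin and secretion proteins, and Nlrp1b senses proteases and inhibition of dipeptidyl peptidases. The sensor recruits Pycard, the adaptor also called ASC, which gathers the protease encoded by Casp1. Caspase-1 matures interleukin-1β and interleukin-18 and cuts gasdermin D, whose fragments form pores in the plasma membrane, while the mouse product of Casp4, known as caspase-11, binds lipopolysaccharide and cuts gasdermin D without a sensor. In this model of vasculitis, mice that lack Nlrp3 or Casp1 are known to be protected.

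The 250 bases before the transcription start are shown for 3 members whose patterns over cell types differ. Casp1 and Casp4 are neighbours on chromosome 9, in the same orientation, with 1562 bases between the end of one gene and the start of the other. Casp4 was abundant in stromal cells, Casp1 was nearly absent from PBS smooth muscle, and Nlrp3 was concentrated in myeloid cells. The sequences are those of RefSeq (GRCm38.p6, plus strand, 5′ to 3′), for Casp1 at chr9:5298267-5298516, for the first listed start of Casp4 at chr9:5308599-5308848 and for the second listed start of Nlrp3 at chr11:59541319-59541568. Capitals mark matches to the NF-kB consensus on either strand.
Casp1: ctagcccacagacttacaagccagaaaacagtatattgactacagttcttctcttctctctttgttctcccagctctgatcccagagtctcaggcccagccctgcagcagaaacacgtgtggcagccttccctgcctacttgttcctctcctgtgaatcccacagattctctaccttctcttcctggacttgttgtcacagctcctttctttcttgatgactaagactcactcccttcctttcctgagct
Casp4: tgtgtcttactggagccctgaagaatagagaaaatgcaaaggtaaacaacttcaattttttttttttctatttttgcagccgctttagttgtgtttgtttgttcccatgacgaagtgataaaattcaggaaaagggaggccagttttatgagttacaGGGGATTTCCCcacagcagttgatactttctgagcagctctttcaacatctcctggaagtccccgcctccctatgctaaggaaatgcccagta
Nlrp3: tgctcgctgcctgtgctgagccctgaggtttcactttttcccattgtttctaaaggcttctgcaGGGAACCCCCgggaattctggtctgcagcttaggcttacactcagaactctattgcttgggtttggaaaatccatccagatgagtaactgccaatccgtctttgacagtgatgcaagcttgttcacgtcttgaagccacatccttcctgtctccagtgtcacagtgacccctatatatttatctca

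The match in the Casp4 window lies 93 to 83 bases before the start, where overlapping matches on both strands share the marked letters, and the match in the Nlrp3 window lies 186 to 177 bases before the start. Of 32851 RefSeq promoter windows of the same length, 3.9% held the consensus. The Casp1 window held none, and it held 1 match to GAGGAA, the core bound by the myeloid factor PU.1, found on the minus strand in this case and in 23.3% of all windows. That core was also in the windows of Aim2, Nlrp1b and Pycard and in the other listed start of Nlrp3. Windows were found for 7 of the 8 members, not for Gsdmd. The first listed start of Nlrp3 held no match to the NF-kB consensus. None of the windows found held TTCNNNGAA, TGANTCA or the core of the interferon-stimulated response element, which are in 7.02%, 6.75% and 2.98% of all windows. A match is a stretch of letters and does not show that a factor binds there.

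The LCWE library held 5091 cells with 42275754 UMIs (median 5508 per cell), and the PBS library held 5386 cells with 62600808 UMIs (median 11252.5), with 8 cell barcodes in common. Cells are given under the names of the authors, in 25 fine and 9 broad classes. Levels are UMIs per cell, or CPM, the UMIs of a gene per 1000000 UMIs of the class. Each group is 1 pooled library, so the spread between animals is unknown, no test was made, and the brackets hold 95% intervals that cover counting error only. Class names were checked against marker genes. The class named eosinophils did not carry the defining eosinophil genes, with 0 UMIs of Epx, Prg2 and Il5ra and 0.0141 UMIs of Ccr3 per cell. It had 0.289 UMIs of Siglecf, 119 of S100a9, 111 of S100a8, 5.44 of Csf3r and 2.82 of Cxcr2 per cell, of which the last 4 are neutrophil genes, and it is called here the S100a8-rich granulocyte class that the authors named eosinophils.

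All 8 genes were higher in the LCWE library taken as a whole. Nlrp3 had 3110 UMIs in LCWE and 47 in PBS cells, or 73.6 (71.0 to 76.2) against 0.751 (0.552 to 0.998) CPM. Aim2 had 770 and 30 UMIs, a CPM ratio of LCWE over PBS of 38.0 (26.4 to 56.7). The ratio was 9.13 (7.45 to 11.3) for Casp1 and 8.86 for Gsdmd, and 3.56 for Pycard and 2.28 for Casp4, the pair with the most UMIs in the PBS library. Nlrc4, with 82 and 1 UMIs, and Nlrp1b, with 28 and 4, were at the limit of this depth. A gene was called at a ratio of at least 2 in either direction and a sum of at least 20 UMIs over the libraries, where the lower level was set to that of 3 UMIs if it had fewer. By that rule 8 of 8 members were higher, against 25.2% of 15470 genes tested, and none was lower, against 14.8% of genes, with a median log2 ratio of 3.28 for the members and 0.11 for all genes tested. The cell makeup of the libraries differed as well, since smooth muscle was 4141 of the PBS cells and 93 of the LCWE cells. With each broad class weighted by its share of PBS UMIs, 5 of 8 members were called higher, and the log2 ratio was 0.45 for Pycard, 0.78 for Nlrc4 and 0.15 for Nlrp1b. The share of all genes called under this weighting is not given here, so that count cannot be set against it. Smooth muscle held 53468481 of the 62600808 PBS UMIs, so these weighted levels rest mostly on the 93 LCWE smooth muscle cells. Those cells held 11 UMIs of Nlrp3, 8 of Aim2 and 5 of Casp1, which within that class were under the minimum for a call. More cells of a type and more transcripts per cell cannot be told apart in the whole libraries, so levels are given class by class.

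**Figure D1:**
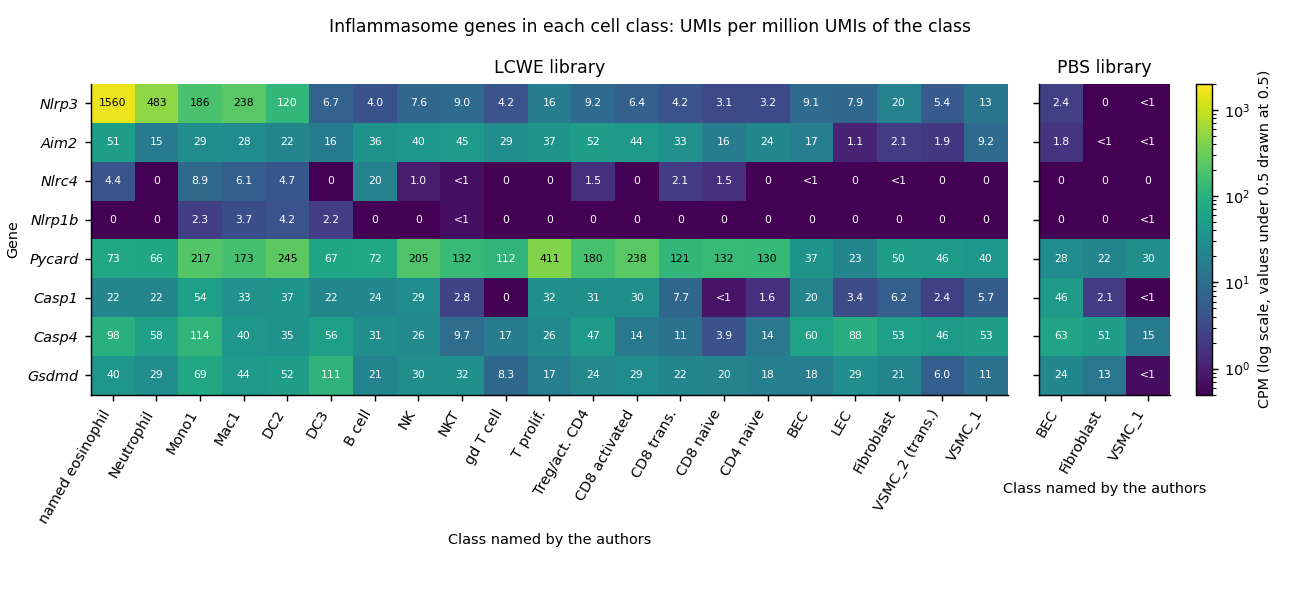
CPM of the 8 genes (rows) in the 21 LCWE classes (left) and the 3 PBS classes (right) with at least 50 cells, with colour on a log scale and the CPM printed in each cell. Nlrp3 is brightest in the granulocyte and mononuclear phagocyte classes, Pycard is above 20 CPM in all of these classes, and Casp1 is under 1 CPM in PBS smooth muscle and at 45.6 CPM in PBS blood endothelium.

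Nlrp3, the sensor at the centre of this model, was a transcript of granulocytes and mononuclear phagocytes. The S100a8-rich class named eosinophils held 1064 UMIs in 142 cells, 7.49 (7.05 to 7.96) per cell and 1560.2 (1468 to 1657) CPM, with up to 40 UMIs in a single cell. Neutrophils had 265 UMIs in 62 cells, 4.27 per cell and 483 (426 to 544) CPM. Mac1 macrophages followed at 238 (221 to 256), Mono1 monocytes at 186 (168 to 205) and DC2 dendritic cells at 120 (104 to 136) CPM. In CPM, each of these 5 classes was apart from the next by its interval, while per cell Mono1 (1.42) and DC2 (1.16) overlapped. Among the 21 classes of at least 50 cells a gap lay below them. The next of these by CPM was fibroblasts at 19.8 (17.2 to 22.8), and the median of the 21 was 9.04. DC3 dendritic cells, which express Ccr7, had 3 Nlrp3 UMIs in 59 cells, 6.68 (1.38 to 19.5) CPM.

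At least 1 Nlrp3 UMI was found in 87.3% of the class named eosinophils, at a median of 3936 UMIs per cell, and in 69.5% of Mac1 macrophages, at 8775. Naive CD4 T cells, which should lack the gene, gave 1.24% at a median of 3640. Thinned to 1600 UMIs per cell, the shares were 75.2%, 28.9% and 0.588%, with the same order as before thinning. All lymphocyte classes lay between 3.10 and 16.4 CPM. The proliferating T cells at the upper end of that range had 6 of their 16 UMIs in 1 cell. Some classes of fewer than 50 cells lay within that gap or above it. The 47 plasmacytoid dendritic cells had 25 Nlrp3 UMIs, 9 of them in 1 cell, at 60.3 (39.1 to 89.1) CPM. The 22 Mono2 monocytes had 2, at 26.4 (3.20 to 95.3) CPM. A further class of 22 cells, named only Mono/Mac/DC, had 52, at 131 (97.7 to 171) CPM. In the PBS library, 28 of the 47 UMIs lay in 5 Mac1 cells and 9 in 9 Mono1 cells, against 1 UMI in 4141 smooth muscle cells and 0 in 868 fibroblasts.

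Aim2, the DNA sensor, was spread over leukocytes and had no single leading class among those of at least 50 cells. It was at 52.0 (40.4 to 65.9) CPM in regulatory and activated CD4 T cells, 51.3 (35.7 to 71.4) in the class named eosinophils, 44.5 (34.3 to 56.9) in NKT cells and 44.3 (34.0 to 56.8) in activated CD8 T cells. These intervals overlap, as do those of the next classes, NK cells at 39.9 and proliferating T cells at 36.9 CPM. Per cell, proliferating T cells were highest at 0.554 (0.388 to 0.767) UMIs, with a median of 12440.0 UMIs per cell, more than any other leukocyte class of at least 50 cells. Mono1, Mac1 and DC2 cells were at 29.4, 28.0 and 21.6 CPM. Among smaller classes, 22 Mono2 monocytes held 8 Aim2 UMIs, 105.5 (45.6 to 208) CPM. Blood endothelial cells (BEC) had 52 UMIs, 17.5 (13.1 to 22.9) CPM, whereas lymphatic endothelial cells (LEC) had 1 UMI in 88 cells. Aim2 overlaps Cadm3 on the opposite strand, and the sources used here do not say whether the counting used strand.

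Nlrc4 and Nlrp1b gave few UMIs, and most classes cannot be ordered. Of the 82 Nlrc4 UMIs, 19 lay in Mono1, 18 in Mac1, 15 in B cells and 9 in DC2. By CPM, B cells were at 19.9 (11.2 to 32.9), Mono1 at 8.86 (5.34 to 13.8) and Mac1 at 6.08 (3.60 to 9.61), with overlapping intervals for the neighbours B cells and Mono1. No cell held more than 2. Of the 28 Nlrp1b UMIs, 11 lay in Mac1, 8 in DC2 and 5 in Mono1. Reads of Nlrp1b can also match its close copies Nlrp1a and Nlrp1c, and how such reads were counted is not given in the sources used here.

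Pycard, the adaptor, was present in all 21 classes, from 22.6 CPM in LEC to 411 (372 to 453) in proliferating T cells. These 65 cells had 6.17 (5.58 to 6.80) UMIs each, and 96.9% of them had at least 1. Next were DC2 cells at 245 (223 to 268) CPM, an interval apart from that of proliferating T cells, then activated CD8 T cells at 238 (213 to 265), Mono1 at 217 (198 to 238) and NK cells at 205 (179 to 235), with intervals that overlap from each class to the next. The granulocyte classes, highest for Nlrp3, were low for its adaptor: 73.3 (54.4 to 96.7) CPM in the class named eosinophils and 65.6 (45.9 to 90.8) in neutrophils. Stromal classes were lower still, with fibroblasts at 49.98 (45.7 to 54.6) and LCWE smooth muscle cells at 40.05 (27.9 to 55.7) CPM. In the PBS library 82.0% of the 1940 Pycard UMIs came from smooth muscle cells, at 29.8 (28.3 to 31.3) CPM, which were 4141 of the 5386 cells. Pycard overlaps Gm45205 on the opposite strand.

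**Figure D2:**
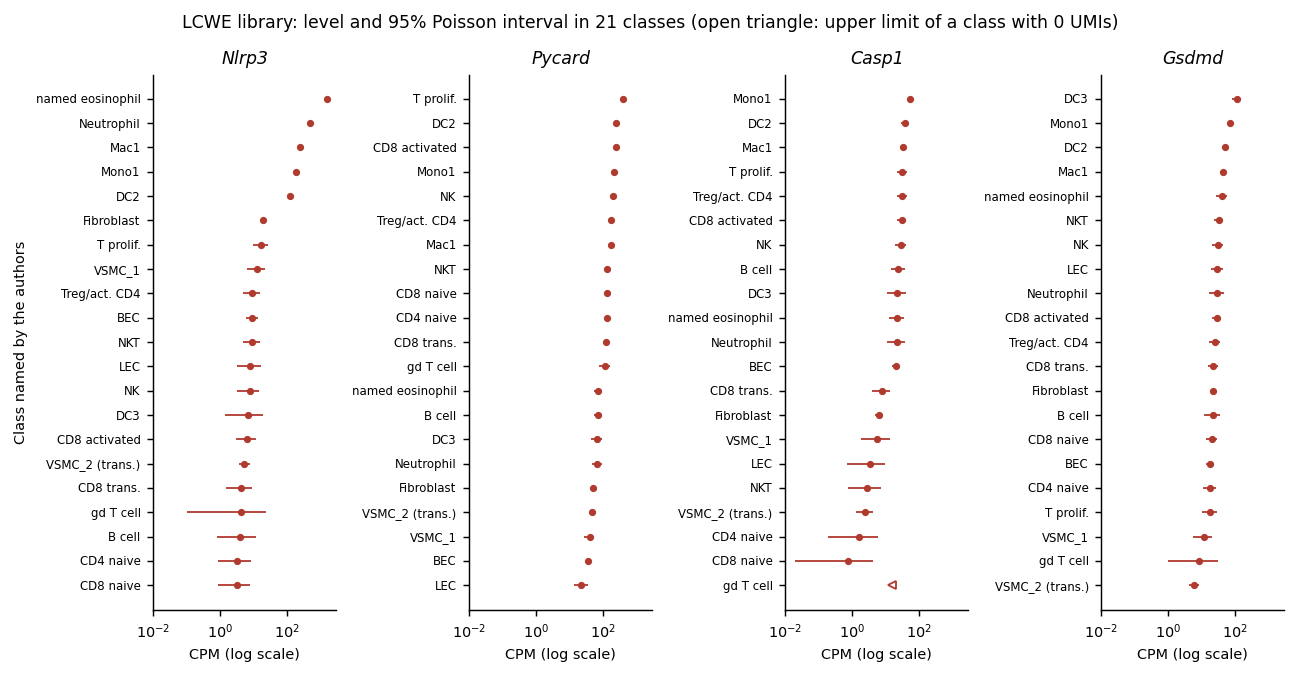
CPM on a log scale with 95% Poisson intervals in the 21 LCWE classes of at least 50 cells, each panel sorted by its own gene. Nlrp3 falls in a step between DC2 cells at 120 CPM and fibroblasts at 19.8 CPM, and Casp1 parts the activated from the naive T cell classes, while Gsdmd is highest in DC3 cells.

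Casp1, the protease of canonical inflammasomes, had its highest CPM in Mono1 monocytes, with 115 UMIs in 281 cells and 53.6 (44.3 to 64.4) CPM. DC2 cells were at 36.9 (28.7 to 46.6), Mac1 macrophages at 33.4 (27.2 to 40.7) and proliferating T cells at 31.8 (21.6 to 45.1) CPM. The intervals of DC2 and proliferating T cells overlap that of Mono1. Per cell, proliferating T cells were highest among classes of at least 50 cells, at 0.477 (0.324 to 0.677) UMIs, against 0.409 (0.338 to 0.491) in Mono1. The granulocyte classes were at 22.0 and 21.9 CPM and blood endothelial cells at 20.2 (15.4 to 26.0) CPM, with overlapping intervals. Among T cells the gene parted the classes by their named state. Regulatory and activated CD4 T cells had 41 UMIs, 31.3 (22.5 to 42.5) CPM, whereas naive CD4 T cells had 2 UMIs, 1.61 (0.195 to 5.82) CPM. Activated, transitional and naive CD8 T cells had 42, 11 and 1 UMIs in 294, 290 and 280 cells, or 30.005 (21.6 to 40.6), 7.65 (3.82 to 13.7) and 0.775 (0.0196 to 4.32) CPM. NKT cells had 4 UMIs in 318 cells and NK cells 30 in 281. No UMI was found in 54 gamma delta T cells, where the interval reaches 15.3 CPM.

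The other members did not part the CD8 T cell classes to that extent. Activated, transitional and naive cells had 20, 16 and 5 UMIs of Casp4, 62, 47 and 21 of Aim2 and 333, 174 and 170 of Pycard. Gsdmd had 40, 32 and 26 UMIs there, with overlapping CPM intervals. The classes were made by clustering cells on their transcripts, so these values describe the classes and are no test between them.

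Casp4, the lipopolysaccharide-sensing caspase, was as much a stromal as a myeloid transcript. Mono1 monocytes were at 114 (100.4 to 130) CPM, the class named eosinophils at 98.2 (76.1 to 125) and LEC at 88.1 (69.6 to 110), with overlapping intervals. BEC were at 60.2 (51.7 to 69.7) and fibroblasts at 53.3 (48.9 to 58.0) CPM, above Mac1 macrophages at 40.2 (33.3 to 48.1). Of the 1950 LCWE UMIs, fibroblasts held 27.3%. Per cell the highest values among classes of at least 50 cells were 0.936 (0.827 to 1.06) in the transitional class between smooth muscle and fibroblast and 0.886 (0.701 to 1.11) in LEC. Regulatory and activated CD4 T cells were at 47.4 (36.3 to 60.7) CPM, an interval that overlaps those of fibroblasts and Mac1 cells. The other T cell classes lay between 3.87 (1.26 to 9.04) CPM in naive CD8 T cells and 25.6 (16.6 to 37.8) CPM in proliferating T cells. In the PBS library smooth muscle cells held 61.8% of the 1264 UMIs, at 14.6 CPM, and fibroblasts were at 51.1 CPM. So the neighbouring caspase genes differed most in smooth muscle, where 4141 PBS cells held 2 UMIs of Casp1 and 781 of Casp4.

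Gsdmd, the pore-forming effector, had its highest level in DC3 dendritic cells, with 50 UMIs in 59 cells and 111 (82.7 to 147) CPM, an interval apart from that of Mono1 monocytes at 69.5 (58.8 to 81.6). No cell held more than 5 of the 50. DC2 and Mac1 cells followed at 51.6 (41.9 to 62.9) and 43.6 (36.4 to 51.8) CPM. The DC3 class, highest for the effector, was low for the sensor Nlrp3, as given above. The class named eosinophils was at 39.6 and neutrophils at 29.1 CPM. Fibroblasts were at 21.3 (18.6 to 24.4) CPM and, being 813 cells, held 18.8% of the 1131 LCWE UMIs. The transitional class had the lowest level, 6.05 (4.21 to 8.41) CPM. In the PBS library fibroblasts held 41.8% of the 189 UMIs, BEC 21.2%, and smooth muscle cells 18.5% with 35 UMIs in 4141 cells.

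Over the 21 LCWE classes, the levels of the members went together only in part. Pearson's r of log2(CPM + 10) was 0.70 between Aim2 and Pycard, 0.68 between Nlrp1b and Gsdmd, 0.60 between Casp1 and Gsdmd and 0.48 between Nlrp3 and Casp1. Nlrp3 and Pycard gave 0.08, and Pycard and Casp4 gave -0.42. These are descriptions over classes of 1 library, which share its depth and its free RNA. Genes whose pattern over the classes was most like that of a member were ranked among 10668 genes with at least 200 LCWE UMIs. For Nlrp3 they were Cd300ld (r = 0.985), Siglece (0.977) and Trem1 (0.971), which encode receptors of myeloid cells. For Pycard they were Cd48 (0.915), Bin2 and Runx3, for Gsdmd Fam49a (0.918), Uvrag and Ikbkb, and for Aim2 Neurl3 (0.932), Akna and Was. The likeness was lower for Casp4, with Gabarap (0.884), Ifitm2 and Zfand3, and lowest for Casp1, with Il10ra (0.845), Tet2 and Dazap2.

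**Figure D3:**
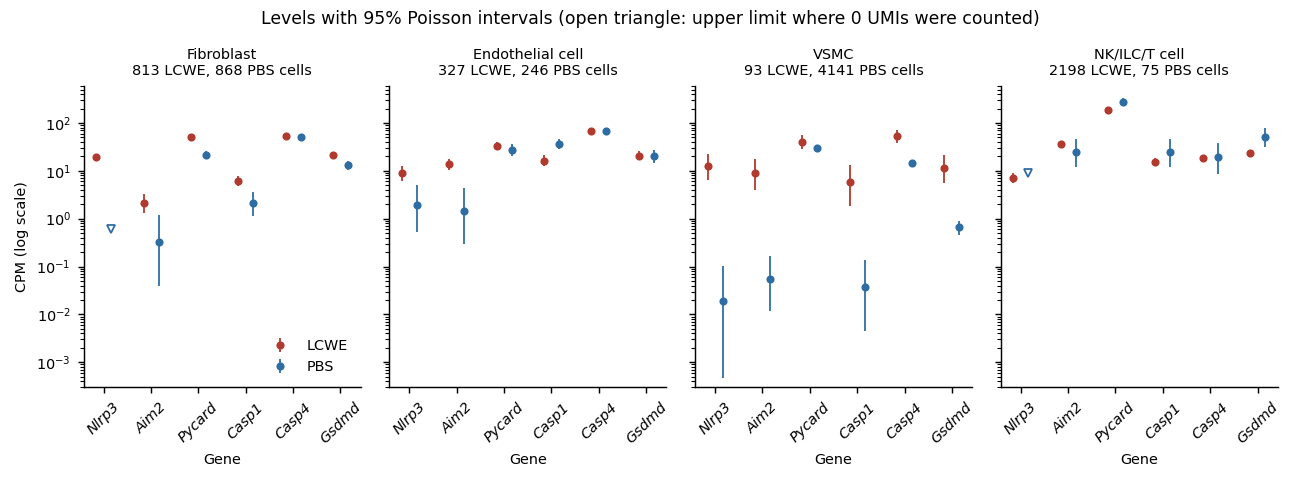
CPM on a log scale with 95% Poisson intervals in the 4 broad classes that had 50 cells or more in each library, LCWE in red and PBS in blue. Casp4 has overlapping intervals between the libraries in fibroblasts and in endothelial cells, Casp1 is lower in LCWE than in PBS endothelial cells, and Casp4 and Gsdmd are higher in LCWE than in PBS smooth muscle cells.

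Within fibroblasts, 4 of the 6 members with enough UMIs were higher in the LCWE library, where 10.4% of 12357 genes were, and none was lower, where 7.31% were. Pycard had 499 UMIs in 813 LCWE cells and 131 in 868 PBS cells, 49.98 (45.7 to 54.6) against 21.5 (18.0 to 25.5) CPM, a ratio of 2.32 (1.91 to 2.84). Casp1 had 62 and 13 UMIs, 6.21 against 2.14 CPM, a ratio of 2.91 (1.58 to 5.76). Gsdmd, at 21.3 against 13.0 CPM, had a ratio of 1.64 (1.26 to 2.16) and was not called. Casp4 differed little, with 53.3 against 51.1 CPM and a ratio of 1.04 (0.905 to 1.20). Nlrp3 had 198 UMIs in LCWE and 0 in PBS fibroblasts. The ratio was 40.2 with the PBS class set to the floor of 3 UMIs, and its lower limit by counting error was 32.4. Aim2 had 21 and 2 UMIs. Whether the LCWE class holds the same kinds of fibroblast as the PBS class was not examined here. The median depth was 11494 UMIs for LCWE and 6215 for PBS fibroblasts.

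The Nlrp3 and Aim2 values of fibroblasts moved with myeloid transcripts in the same cells. The sum of 6 neutrophil markers was 4.48 UMIs in each LCWE fibroblast on average and 0.0207 in PBS fibroblasts, where Retnlg, Csf3r and Mmp8 were at 0. The 8 monocyte and macrophage markers summed to 4.001 and 0.103, with Adgre1, Fcgr1, C1qa, C1qb and Ccr2 at 0 in PBS fibroblasts. The Nlrp3 UMIs lay in 78 LCWE fibroblasts, with up to 14 in 1 cell. On average these cells carried 31.2 neutrophil and 20.5 monocyte and macrophage marker UMIs, against 1.65 and 2.25 in the 735 cells without Nlrp3. The medians were 1 and 9.5 with Nlrp3, against 0 and 0 without it, so the means rest on part of the cells. Of the 78 cells, 23 had no neutrophil marker UMI and 20 had no monocyte or macrophage marker UMI. For every 100 UMIs of S100a8 and S100a9, fibroblasts held 6.03 UMIs of Nlrp3, the class named eosinophils 3.25, neutrophils 0.24, Mac1 macrophages 142 and naive CD4 T cells 2.25. Other lymphoid and stromal classes of at least 50 cells lay between 1.38 in B cells and 22.5 in proliferating T cells, with 5.11 in BEC, 7.81 in the transitional class and 8.51 in regulatory and activated CD4 T cells. The value of fibroblasts lay within that wide range and above the 2.06 of the whole LCWE library. The ends of the range rest on 3 Nlrp3 UMIs in B cells and 16 in proliferating T cells.

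Leaving out the fibroblasts with 3 or more UMIs of neutrophil or eosinophil markers lowered Nlrp3 to 75 UMIs in 733 cells and Aim2 to 11, which is under the minimum. When monocyte and macrophage markers were counted too, an alternative chosen after the data were seen, 624 LCWE cells remained with 17 Nlrp3 UMIs and 1 Aim2 UMI, against 0 and 2 UMIs in 866 PBS cells. Under that alternative the ratio was 2.11 (1.08 to 4.38) for Casp1, 1.95 (1.58 to 2.42) for Pycard, 1.58 (1.20 to 2.11) for Gsdmd and 1.05 for Casp4. So 1 of the members was still called higher in fibroblasts, Casp1, with Pycard just under the limit. How far transcripts from other cells make up the Nlrp3 and Aim2 values of fibroblasts was not tested.

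**Figure D4:**
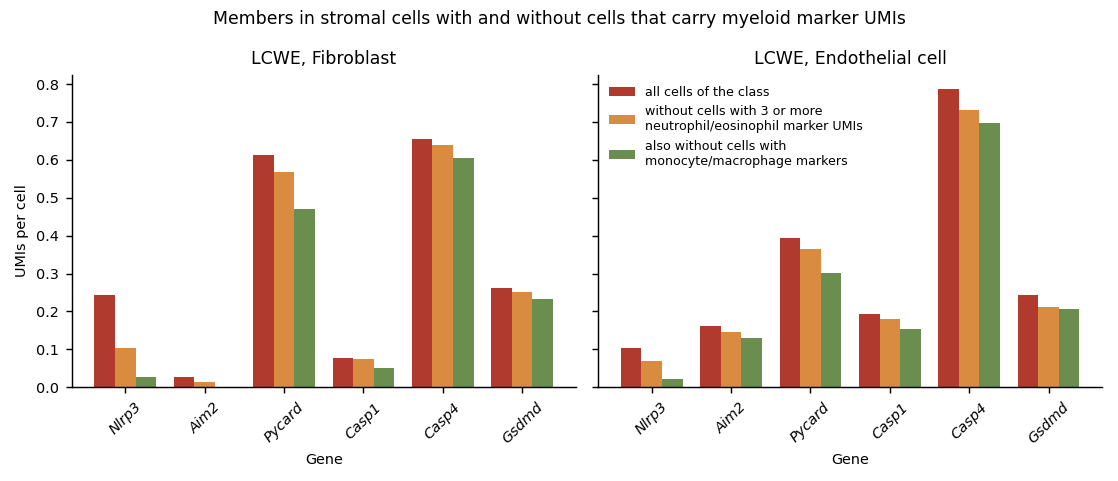
UMIs per cell of 6 members in LCWE fibroblasts (left) and LCWE endothelial cells (right), for all cells of the class, without cells with 3 or more UMIs of neutrophil or eosinophil markers, and also without cells with monocyte and macrophage markers. In fibroblasts Nlrp3 has 198 UMIs in 813 cells, 75 in 733 and 17 in 624 under these settings, while Casp4 and Gsdmd move little.

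In endothelial cells Casp1 was lower in the LCWE library. It had 63 UMIs in 327 LCWE cells and 76 in 246 PBS cells, or 16.3 (12.5 to 20.9) against 37.1 (29.3 to 46.5) CPM, a ratio of 0.440 (0.310 to 0.622). All 76 PBS UMIs lay in blood endothelial cells, at 45.6 (35.9 to 57.1) CPM, against 20.2 (15.4 to 26.0) CPM in LCWE blood endothelial cells. In the PBS library these 217 cells held 69.1% of all Casp1 UMIs. By level the gene was not particular to endothelium there. The 18 PBS mononuclear phagocytes held 8 UMIs, 37.0 (16.0 to 72.8) CPM. The 75 PBS cells of the T and NK cell class held 10 UMIs, 24.6 (11.8 to 45.2) CPM. Casp1 was the 1 member called lower, where 5.66% of 10925 genes were in endothelial cells and 6.36% in the blood endothelial class. Per cell, with no scaling to depth, the values were 0.193 in LCWE and 0.309 in PBS endothelial cells, less than 2-fold apart. Smooth muscle markers in blood endothelial cells were 22.5 UMIs per LCWE cell and 5.44 per PBS cell, and their part in the Casp1 values was not tested.

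Aim2 and Nlrp3 were higher in LCWE endothelial cells, 2 of the 6 members with enough UMIs, where 10.2% of genes were. Both were also called in the blood endothelial class, where 11.5% of genes were. Nlrc4 had 1 and 0 UMIs and Nlrp1b 0 in endothelial cells of either library, under the minimum. Aim2 had 53 and 3 UMIs, 13.7 (10.3 to 18.0) against 1.47 CPM, a ratio of 9.37 (3.04 to 46.9), and Nlrp3 had 34 and 4 UMIs, a ratio of 4.51 (1.61 to 17.5). Without cells that carry myeloid markers by the wider list, Aim2 had 35 and 2 UMIs, a ratio of 12.2 (3.13 to 104), and Nlrp3 had 6 and 2. Aim2 in endothelium was as large without these cells, while the Nlrp3 sum was below the minimum. The ratio was 1.22 (0.887 to 1.70) for Pycard, 1.00 (0.811 to 1.24) for Casp4 and 1.01 (0.687 to 1.51) for Gsdmd, and none of these 3 was called. The myeloid marker sums were 2.19 and 5.04 UMIs per LCWE endothelial cell for the neutrophil and the monocyte and macrophage lists, against 0.0528 and 0.289 per PBS cell, where Csf3r and Mmp8 and Adgre1, Fcgr1 and C1qb were at 0.

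In smooth muscle, Casp4 and Gsdmd were higher in the 93 LCWE cells than in the 4141 PBS cells, 2 of 3 members with enough UMIs, where 12.4% of 12817 genes were. Casp4 had 46 UMIs, 52.6 (38.5 to 70.2) CPM, in LCWE cells and 781 UMIs, 14.6 (13.6 to 15.7) CPM, in PBS cells, a ratio of 3.604 (2.62 to 4.85). Gsdmd had 10 UMIs, 11.4 (5.49 to 21.04) CPM, and 35 UMIs, 0.655 (0.456 to 0.910) CPM, a ratio of 17.5 (7.72 to 36.1). The 10 LCWE UMIs of Gsdmd lay in 9 cells with a median of 4475 UMIs, against 8780 in the 84 cells without it. Pycard, the third, had a ratio of 1.35 (0.934 to 1.88). Casp1 had 5 UMIs in LCWE cells, 3 of them in 1 cell, and 2 in PBS cells, which is under the minimum. Without the cells that carry myeloid markers by the wider list, 77 LCWE cells held 35 Casp4 and 5 Gsdmd UMIs, with ratios of 3.45 (2.39 to 4.84) and 11.0 (3.36 to 28.2). The neutrophil markers summed to 2.49 UMIs per LCWE smooth muscle cell and 0.0367 per PBS cell, and smooth muscle markers to 362 and 592.

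In the class of T cells, NK cells and innate lymphoid cells 0 of 6 members were higher, where 3.28% of 10602 genes were, and Gsdmd was lower, where 7.97% were. Gsdmd had 249 UMIs in 2198 LCWE cells and 21 in 75 PBS cells, 24.0 (21.1 to 27.1) against 51.7 (32.0 to 79.0) CPM, a ratio of 0.464 (0.297 to 0.763). The makeup of the class differed, since NK markers summed to 6.04 UMIs per LCWE cell and 28.5 per PBS cell. Pycard was at 184 against 280.4 CPM, but 55 of its 114 PBS UMIs came from 4 proliferating T cells. Without proliferating T cells, an alternative chosen after the data were seen, its ratio was 0.911 (0.702 to 1.20), against 0.655 with them, and that of Gsdmd was 0.460 (0.285 to 0.790). Aim2, Casp1 and Casp4 had 10, 10 and 8 UMIs in the PBS class, with ratios whose intervals include 1. Nlrp3 had 73 and 0 UMIs, and the PBS class is too shallow to show a level as low as that of the LCWE class.

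In single LCWE cells, the sensor, the adaptor and the protease were seen together mostly in mononuclear phagocytes. At least 1 UMI of each of Nlrp3, Pycard and Casp1 was found in 132 of 5091 cells. Of Mac1 macrophages 42 of 282, or 14.9% (10.9 to 19.6), were of that kind, of DC2 cells 27 of 195, or 13.8% (9.33 to 19.5), and of Mono1 monocytes 37 of 281, or 13.2% (9.44 to 17.7). The class named eosinophils had 4 of 142 such cells, or 2.82% (0.773 to 7.06), and neutrophils had 3 of 62, while fibroblasts had 5 of 813. With each cell thinned to 1600 UMIs the shares were 0.292% in Mac1, 0.337% in DC2, 0.469% in Mono1 and 0.176% in the class named eosinophils. These thinned shares, at most 0.469%, are too low to order the classes or to say whether they lie closer together at equal depth. Gsdmd joined the trio in 22 Mac1, 22 Mono1 and 14 DC2 cells. At least 4 of the 8 members were found in 25.9% of Mac1, 25.6% of Mono1 and 24.6% of DC2 cells, against 5.81% of all LCWE cells and 0.111% of all PBS cells.

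As counted, a smaller share of the granulocyte classes than of the mononuclear phagocytes held Nlrp3 and Pycard together. Nlrp3 and Pycard were found together in 54.3% (48.2 to 60.2) of Mac1 cells, 42.0% of Mono1 cells and 41.0% of DC2 cells, and in 19.7% (13.5 to 27.2) of the class named eosinophils and 22.6% (12.9 to 35.0) of neutrophils. Thinned to 1600 UMIs, these shares were 6.89%, 5.83%, 4.69%, 5.86% and 2.60%, so that the class named eosinophils lay among the mononuclear phagocytes. As counted, Pycard with Casp1 was found in 27.7% (17.3 to 40.2) of proliferating T cells, 24.6% of DC2, 21.7% of Mono1 and 20.6% of Mac1 cells. In the class named eosinophils the share was 2.82%. The DNA-sensing trio of Aim2, Pycard and Casp1 was found in 18.5% (9.92 to 30.03) of proliferating T cells, whose median depth was 12440.0 UMIs, and in 6.67%, 5.69% and 5.67% of DC2, Mono1 and Mac1 cells.

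Within a class, the thinned shares of Pycard or Casp1 did not differ in one direction between cells with and without a Nlrp3 UMI after thinning. Among Mac1 cells Pycard was found in 78.1% of the 196 with Nlrp3 and 66.3% of the 86 without it, and Casp1 in 25.5% and 23.3%. Cells with Nlrp3 were deeper, at a median of 9501 UMIs against 7159.5. Thinning also removes Nlrp3 UMIs: 69.5% of Mac1 cells had Nlrp3 as counted and 28.9% when thinned. Many thinned cells without Nlrp3 thus had it as counted. So alike thinned shares cannot show that cells with and without the gene are alike. Thinned to 1600 UMIs, Pycard was found in 23.9% of Mac1 cells that kept Nlrp3 and 23.9% of those that did not, and Casp1 in 3.52% and 4.99%. In Mono1 the thinned shares were 25.1% and 28.1% for Pycard and 7.38% and 8.69% for Casp1. The thinned share was larger with Nlrp3 for Casp1 in DC2 cells, at 6.46% and 5.71%, and in the class named eosinophils, at 3.13% and 2.40%. It was also larger for Pycard in fibroblasts, at 7.92% and 6.36%, and in BEC, at 7.40% and 6.37%. Casp4 and Gsdmd, which act together in the lipopolysaccharide pathway, were found in the same cell in 17.4% (13.2 to 22.4) of Mono1, 16.9% of DC3, 10.0% of BEC and 8.61% of fibroblasts. Il1b, which encodes a substrate of caspase-1, was found in 34 of the 42 Mac1 cells with Nlrp3, Pycard and Casp1, and in 78.4% of all Mac1 cells. It was found in 35 of the 37 such Mono1 cells and in 93.6% of all Mono1 cells.

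**Figure D5:**
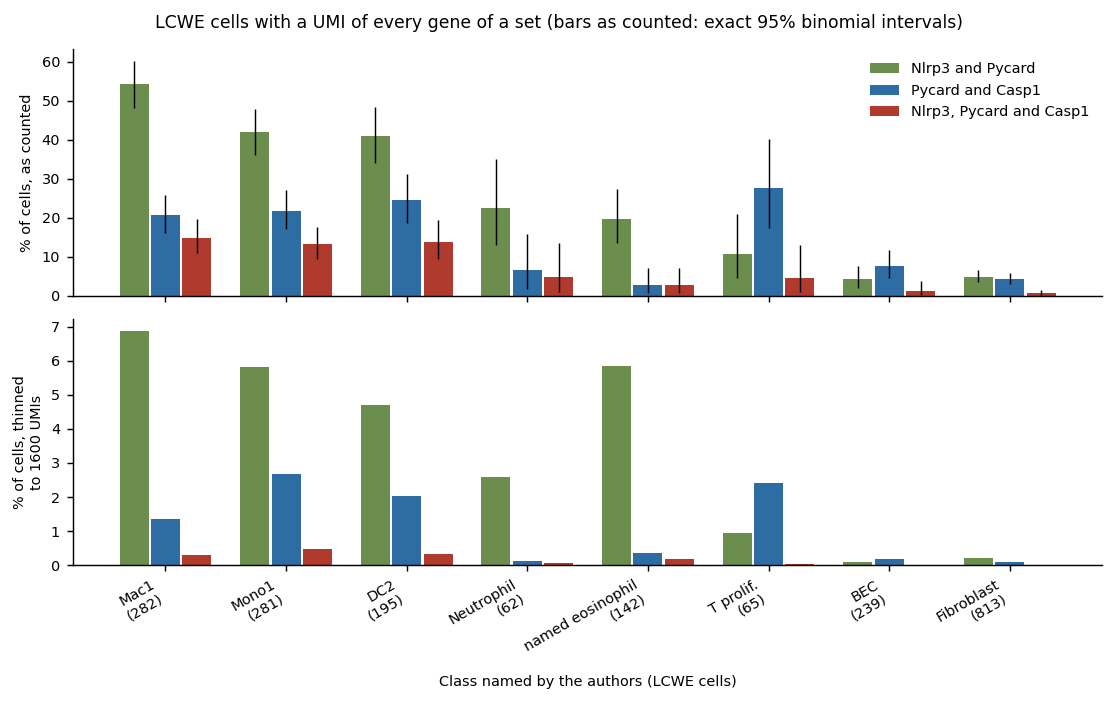
Share of LCWE cells with a UMI of both or all genes of a set, as counted with exact 95% binomial intervals (top) and computed with each cell thinned to 1600 UMIs (bottom), with the number of cells of each class in brackets. The trio of Nlrp3, Pycard and Casp1 is found in 14.9% of Mac1 cells as counted and in 0.292% when thinned, and Pycard with Casp1 is scarce in the granulocyte classes in both panels.

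Of 30 further genes of the pathway, listed by role, 24 had enough UMIs in the whole libraries, of which 16 were higher in the LCWE library, where 25.2% of all genes tested were, and 1, Casp12, was lower, where 14.8% were. Their median log2 ratio was 1.83, against 0.11 for all genes tested. Among sensors, Mefv, which encodes pyrin, had 617 and 6 UMIs, a ratio of 152 (69.6 to 417), and was highest in Mono1 at 126 CPM, and Naip2, which binds bacterial secretion proteins for Nlrc4, had 504 and 21, with 177 of the LCWE UMIs in Mac1. Reads of Naip2, Naip5 and Naip6 can match more than 1 of these copies. Of 12 genes listed for licensing and control of the complex, 6 were higher (P2rx7, Panx1, Gbp2, Gbp5, Zbp1 and Serpinb1a) and 6 were not called. Among those not called, Nek7, the partner of Nlrp3, was at 60.1 against 82.0 CPM, and Dpp9, which holds Nlrp1b inactive, at 31.9 in both libraries. Ninj1, which ruptures the membrane of dying cells, was at 99.9 against 82.2 CPM. Il18, the other cytokine substrate, was at 10.7 against 2.86 CPM, a ratio of 3.76 (3.15 to 4.49), and fibroblasts held 182 of its 454 LCWE UMIs.

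Within fibroblasts 8 of 21 tested genes of that list were higher, where 10.4% of all genes were, and 0 lower. The 8 were Naip2, Mefv, Panx1, Gbp5, Zbp1, Serpinb1a, Il1b and Dfna5. Il18 was at 18.2 against 25.1 CPM in fibroblasts, a ratio of 0.725 (0.581 to 0.905). Zbp1, a nucleic acid sensor that can act above Nlrp3, was at 78.2 against 10.35 CPM there, 7.55-fold (5.84 to 9.93). In endothelial cells 3 of 19 were higher, where 10.2% of all genes were, and 1 lower, where 5.66% were: Gbp5, an interferon-induced guanylate-binding protein that promotes Nlrp3 assembly, was at 12.2 against 36.6 CPM, a ratio of 0.332 (0.226 to 0.485). In smooth muscle 8 of 18 were higher, where 12.4% of all genes were. In the T and NK cell class 1 of 21, Il1b, was higher, where 3.28% were, and 2 were lower, where 7.97% were. The lower ones were Naip5, a flagellin receptor for Nlrc4, and Serpinb1a, which encodes a protease inhibitor. Naip5 had 27 and 3 UMIs, so few that the interval of its ratio includes 1. Serpinb1a was at 15.6 against 125 CPM, a ratio of 0.124 (0.0903 to 0.174). Il1b was among the higher genes in each of these classes. The counts for this list include the cells that carry myeloid markers, and the part of transcripts from other cells in them was not tested. The list was not tested as a set.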

How the data were processed

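Per the labels and the submitters' processing notes, the libraries used 10x Genomics 3′ chemistry, Cell Ranger 3.0.2 and the mm10 genome; strand use and other settings are not given in the sources used here. The authors deposited UMI counts that are not normalized, their names for the cells, the percent of mitochondrial UMIs per cell (at most 15.0%), and a doublet score from an unnamed caller. The percent and the score were used only in alternatives, and no listed cell carries the authors' dead-cell or doublet call. The 83816 member entries of the joint table were checked against the single-library tables, and 0 differ.

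Python 3.11.15 with numpy 2.4.6, pandas 2.3.3 and scipy 1.17.1 summed UMIs per class and library. CPM carry exact Poisson intervals, ratios exact conditional binomial intervals, and shares of cells Clopper-Pearson intervals, all 95% and covering counting error only. For a call, the level of 3 UMIs was put in place of the lower level where its sum was under 3. The plan raised any sum under 3, which called genes lower in LCWE that had no PBS UMI, where the PBS class was shallow. This was changed after the data were seen, and no member's call changed. Compared classes had 50 cells or more from each library. Thinned shares are expected values for 1600 UMIs drawn from each cell, which kept all cells, since the shallowest has 1613. Gene positions are from GENCODE vM21 (GRCm38), motifs were searched on both strands of RefSeq windows, and Gsdme is listed as Dfna5. The method was tested on simulated data. All members are named, other genes by likeness or a pathway list; members and lists were chosen with earlier results of these data known.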

Additional observations from a re-analysis of the deposited data

Results flagged for a closer look

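The ratios of Pycard, Casp1 and Gsdmd lay on opposite sides of 1 in different classes of the same pair of libraries, and none of these differences between classes was tested. Pycard in the class of T cells, NK cells and innate lymphoid cells and Gsdmd in fibroblasts were not called. Pycard had a ratio of LCWE over PBS of 2.32 in fibroblasts and 0.655 in the class of T cells, NK cells and innate lymphoid cells. The lower value rests on 4 PBS proliferating T cells, and it was 0.911 without proliferating T cells. Casp1 had a ratio of 2.91 in fibroblasts and 0.44 in endothelial cells. Gsdmd had ratios of 17.5 in smooth muscle cells and 1.64 in fibroblasts, against 0.464 in that T and NK cell class, where the PBS value rests on 21 UMIs in 75 cells.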

How the results depend on the processing

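No paired analysis was possible because each group is 1 library. Counts of called members kept within 1.5 times of the reported ones under most alternatives. The cause of the shifts below was not tested. The shares of all genes called under these alternatives are not given here, so the counts describe the members only. Weighting by the PBS class composition left 5 of 8 members higher in the whole library, a setting that rests mostly on 93 LCWE smooth muscle cells. A 3-fold call left 2 higher in fibroblasts and 0 lower in endothelial cells and in the T and NK cell class. UMIs per cell, with no scaling to depth, left 0 lower in endothelial cells. With no minimum of UMIs, 5 members were higher in smooth muscle. Cells with 3 or more UMIs of neutrophil, eosinophil, monocyte and macrophage markers were left out in an alternative chosen after seeing the data. It left 1 member higher in fibroblasts and 1 in endothelial cells, with Nlrp3 under the minimum of UMIs in both. The share of Mono1 cells with Nlrp3, Pycard and Casp1 was 2.17% when thinned to 3000 UMIs, against 0.469% at 1600. Leaving out cells over 10% mitochondrial UMIs or the 5% of cells with the highest doublet score moved none of these counts by over 1.5 times. Of all other values compared, counts of cells kept and of like genes among them, 200 stayed the same by their rule and 70 moved. All 8 log2 ratios of the whole library moved under the PBS class composition. Depth limits Nlrc4, Nlrp1b and every PBS leukocyte class.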
